A study of Rattus norvegicus with 40 samples.

Results

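A set of 9 well-known transcriptional targets of p53 was followed in rat liver during and after diethylnitrosamine (DEN) dosing. They were Cdkn1a, Mdm2, Ccng1, Phlda3, Fas, Bax, Gdf15, Btg2 and Sesn2, taken by symbol from the count files, and they made up 9 of the 17337 genes counted. All 9 were detected in each of the 40 libraries, with 36 to 11666 counts per library, and all 9 passed the filter on low counts in every comparison.

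Male Fischer 344 rats received weekly intraperitoneal DEN at 50 mg/kg, diluted in olive oil, from 7 weeks of age. Non-tumoral (NT) liver was taken from 4 rats after 8 weeks of DEN, from 4 rats after 14 weeks, and from 4 rats at week 20, that is after 14 weeks of DEN and 6 weeks without it. At weeks 14 and 20, 2 nodules of each DEN-treated rat were sequenced beside its NT liver, and 4 rats of the same age without DEN gave the control liver (no DEN) at each time. The no DEN rats were described as untreated, so DEN and the injections of oil cannot be told apart. Each group had 4 rats, and the rats numbered F (4 in all) were all DEN-treated while every no DEN rat was numbered H, so that number series and treatment overlap in part.

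p53 is a transcription factor that is stabilised when DNA is damaged. It then switches on genes that halt the cell cycle, repair DNA or start cell death, together with genes that feed back on p53 itself. DEN is converted in hepatocytes to a DNA-alkylating agent. The p53 gene itself was not analysed here.

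Promoter windows from RefSeq (assembly GRCr8, 250 bases before to 50 bases after each gene start) were held for 8 of the 9 genes. They were searched on both strands for the p53 response element, a pair of 10-base motifs with at most 1 base between them. With up to 2 mismatches in the 20 bases, a match was found in the windows of Cdkn1a and Ccng1, each with 1 mismatch and no base between the 10-base motifs. The window sequences around these matches are shown, with the matched 20 bases in capitals, because no other window of these genes held a match. The Cdkn1a stretch is chr20:7150691-7150790 on the plus strand, and the Ccng1 stretch is chr10:25685059-25685126 on the minus strand.
Cdkn1a: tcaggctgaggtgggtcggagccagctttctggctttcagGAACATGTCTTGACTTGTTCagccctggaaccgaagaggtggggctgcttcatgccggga
Ccng1: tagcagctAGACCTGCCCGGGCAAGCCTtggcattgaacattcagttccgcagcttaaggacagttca
The matches began 201 bases before the gene start in Cdkn1a and 242 bases before it in Ccng1, and the mismatch of Ccng1 lay in the 4-base core of a motif. Among all 33469 rat promoter windows of this length, 0.164% held a match with at most 1 mismatch and 1.73% a match with at most 2. The letters of the motif were not found in the windows of Mdm2, Phlda3, Fas, Gdf15, Btg2 and Sesn2, which covers these windows only. A match is a description of sequence and not a measured binding site.

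In NT liver, 6 of the 9 genes rose past a doubling at an adjusted p of at most 0.01 after 8 weeks of DEN, 6 after 14 weeks and 0 at week 20 (edgeR quasi-likelihood test with Benjamini-Hochberg adjustment). Over all genes tested, 7.91% passed in either direction at week 8, 15.2% at week 14 and 5.22% at week 20, and 7.29%, 13.1% and 4.89% were higher. Cdkn1a, Mdm2, Ccng1, Fas and Btg2 were called at both dosing times, Bax at week 8 alone and Gdf15 at week 14 alone. The median log2 fold change of the 9 genes was 1.27 at week 8, 1.10 at week 14 and 0.31 at week 20, while the median of all genes tested was -0.01, 0.02 and 0.02. At week 20, 5 of the 9 had an unadjusted p under 0.05, as did 40.2% of all genes tested. DESeq2 also called 0 of the 9 at week 20, where it called 779 of all genes.

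**Figure D1:**
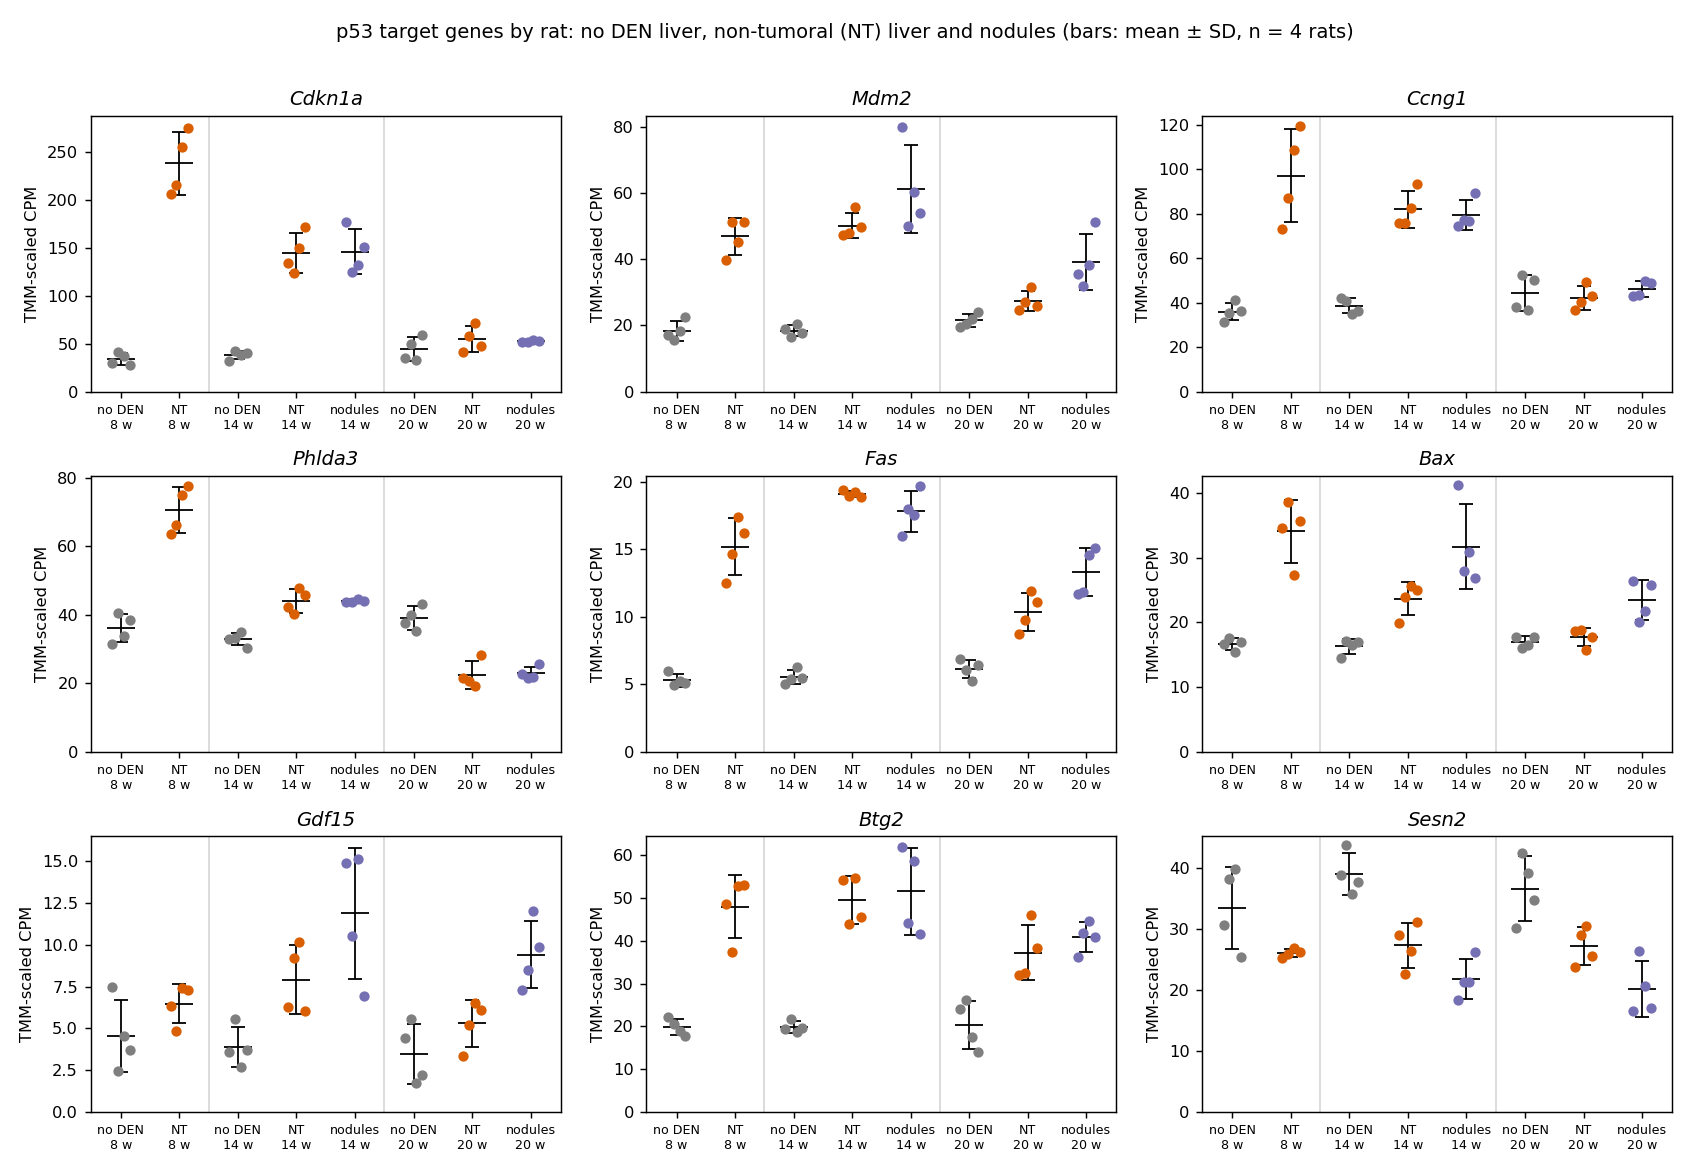
Level of each gene (TMM-scaled CPM, y axis from 0) in each rat of the 8 groups, with the mean and SD of 4 rats; nodule points are the mean of the 2 nodules of a rat. Cdkn1a, Ccng1, Mdm2, Fas and Btg2 of NT liver lie above all no DEN rats at weeks 8 and 14, and Phlda3 of NT liver lies below all no DEN rats at week 20.

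Of the genes of cell-cycle arrest, Cdkn1a had the largest rise of the 9 genes at both dosing times. It encodes p21, the inhibitor of cyclin-dependent kinases through which p53 stops the cell cycle. At week 8 its level was 206, 215, 255 and 275 CPM (read counts scaled to a common library size by TMM) in NT liver, against 29.6, 40.8, 37.1 and 28.1 in no DEN liver. At week 14 it was 134, 123, 149 and 172 CPM in NT liver and 31.7, 42.3, 38.4 and 39.8 CPM in no DEN liver. The groups lay far apart at both times, and every NT value at week 14 was lower than every NT value at week 8. At week 20 the levels were 41.2, 58.2, 71.5 and 48.0 CPM in NT liver and 34.5, 50.1, 32.4 and 58.6 CPM in no DEN liver, and the groups overlapped. Cdkn1a rose by 2.80 on the log2 scale at week 8 (SE 0.15, edgeR adjusted p = 3.65e-06) and by 1.94 at week 14 (SE 0.12, adjusted p = 2.44e-06). Its log2 fold change at week 20 was 0.31 (95% confidence interval -0.20 to 0.83, edgeR adjusted p = 0.339).

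Ccng1 encodes cyclin G1, a p53 target that recruits a phosphatase to Mdm2. It had 73.1, 87.1, 109 and 119.6 CPM in NT liver at week 8 and 75.8, 75.9, 82.7 and 93.6 CPM at week 14. No DEN liver ranged from 31.4 to 41.0 CPM at week 8 and from 35.1 to 42.2 CPM at week 14, so the groups did not overlap. At week 20, NT liver had 36.7, 40.1, 49.4 and 42.9 CPM and no DEN liver 38.0, 52.4, 36.8 and 50.4 CPM, which overlapped throughout. Ccng1 rose by 1.42 at week 8 (SE 0.16, edgeR adjusted p = 0.000159) and by 1.10 at week 14 (SE 0.09, adjusted p = 8.89e-06), and stood at -0.07 at week 20 (95% confidence interval -0.37 to 0.22).

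Btg2, an antiproliferative gene that recruits the mRNA deadenylation machinery, kept more of its difference. NT liver had 48.6, 37.4, 52.8 and 53.2 CPM at week 8, 54.2, 43.9, 54.7 and 45.6 CPM at week 14, and 32.02, 32.6, 46.0 and 38.3 CPM at week 20. No DEN liver ranged from 17.7 to 22.1 CPM, from 18.6 to 21.8 CPM and from 14.0 to 26.1 CPM at these times, and no NT value fell inside these ranges. Btg2 rose by 1.27 at week 8 (SE 0.12, edgeR adjusted p = 5.83e-05) and 1.33 at week 14 (SE 0.09, adjusted p = 3.35e-06). At week 20 its log2 fold change was 0.87 (SE 0.19, edgeR adjusted p = 0.0103), which missed both thresholds, and without no DEN rat H14 it was 1.01 with an adjusted p of 0.00935 and passed.

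Mdm2, the ubiquitin ligase that marks p53 for degradation, is the best-known feedback gene. Its level in NT liver was 39.7, 51.3, 45.0 and 51.3 CPM at week 8, 47.2, 47.9, 55.7 and 49.6 CPM at week 14, and 24.6, 27.1, 31.7 and 25.7 CPM at week 20. No DEN liver ranged from 15.5 to 22.5 CPM, from 16.5 to 20.3 CPM and from 19.4 to 24.1 CPM. All NT values lay above all no DEN values at the 3 times, by a narrow margin at week 20. Mdm2 rose by 1.34 at week 8 (SE 0.13, edgeR adjusted p = 4.38e-05) and by 1.46 at week 14 (SE 0.08, adjusted p = 1.42e-06), and its log2 fold change at week 20 was 0.34 (SE 0.10, adjusted p = 0.0309), short of both thresholds.

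Of the genes of cell death, Fas encodes a death receptor of the cell surface and Bax a protein that permeabilises the outer mitochondrial membrane. Fas had 12.5, 14.6, 17.4 and 16.2 CPM in NT liver at week 8 and 19.4, 18.9, 19.2 and 18.9 CPM at week 14, against 4.90 to 5.96 CPM and 5.03 to 6.25 CPM in no DEN liver. At week 20, NT liver had 8.70, 9.72, 11.9 and 11.1 CPM and no DEN liver 6.83, 6.03, 5.25 and 6.44 CPM. The groups did not overlap at any time, and the 4 NT values of week 14 lay within a very narrow range. Fas rose by 1.51 at week 8 (SE 0.13, edgeR adjusted p = 2.44e-05) and by 1.80 at week 14 (SE 0.08, adjusted p = 3.63e-07). At week 20 its log2 fold change was 0.75 (SE 0.13), with an edgeR adjusted p of 0.00296 but less than a doubling.

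Bax had 34.6, 38.7, 27.2 and 35.6 CPM in NT liver at week 8, 19.9, 23.9, 25.6 and 24.96 CPM at week 14, and 18.7, 18.8, 15.8 and 17.7 CPM at week 20. No DEN liver lay between 14.5 and 17.8 CPM throughout. NT liver was above all no DEN rats at weeks 8 and 14 and overlapped with them at week 20. Bax rose by 1.02 at week 8 (SE 0.10, edgeR adjusted p = 6.70e-05), just past a doubling, and the call was lost without rat F10, H07 or H18 (0.965, 0.998 and 0.998). Its log2 fold change was 0.54 at week 14 (SE 0.09, edgeR adjusted p = 0.000527) and 0.05 at week 20 (95% confidence interval -0.14 to 0.24).

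Phlda3 encodes a repressor of the survival kinase Akt, and it was the gene whose order of groups turned over. In NT liver it had 63.6, 66.3, 75.1 and 77.5 CPM at week 8 and 42.2, 40.2, 47.8 and 45.8 CPM at week 14, above the 31.5 to 40.4 CPM and 30.4 to 34.9 CPM of no DEN liver. At week 20, NT liver had 21.4, 20.5, 19.0 and 28.2 CPM and no DEN liver 37.7, 39.97, 35.2 and 43.3 CPM, so every DEN-treated rat was now below every untreated one. The log2 fold changes were 0.96 at week 8 (SE 0.10, edgeR adjusted p = 8.45e-05), 0.43 at week 14 (SE 0.08, adjusted p = 0.000716) and -0.81 at week 20 (SE 0.13, adjusted p = 0.00163). None reached a doubling, although at week 8 the value was 1.02 without rat F09 and 1.01 without rat H06 and then passed.

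Gdf15 and Sesn2 are stress genes with inputs beside p53. Gdf15, a secreted hormone of the TGF-beta family, had 6.34, 4.86, 7.41 and 7.30 CPM in NT liver at week 8, 6.29, 9.19, 10.1 and 6.01 CPM at week 14, and 3.36, 5.17, 6.54 and 6.10 CPM at week 20. No DEN liver ranged from 2.43 to 7.47 CPM, from 2.69 to 5.57 CPM and from 1.75 to 5.54 CPM, so that only week 14 was free of overlap. Gdf15 rose by 1.04 at week 14 (SE 0.24, edgeR adjusted p = 0.00444), a call that was lost without any 1 of H09, H11, H12, H21 or H22 (0.90 to 1.01, adjusted p 0.0111 to 0.0165) and in the fit with all 8 groups (1.01, adjusted p = 0.0133). Its log2 fold changes at weeks 8 and 20 were 0.51 (SE 0.29, adjusted p = 0.204) and 0.63 (SE 0.35, adjusted p = 0.203).

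Sesn2, an inhibitor of mTORC1 under nutrient and oxidative stress, was the gene of the 9 that stood below no DEN liver at all 3 times. NT liver had 25.2, 25.9, 26.9 and 26.1 CPM at week 8, 29.0, 22.6, 26.3 and 31.1 CPM at week 14, and 23.7, 29.0, 30.4 and 25.5 CPM at week 20. No DEN liver ranged from 25.4 to 39.7 CPM, from 35.6 to 43.7 CPM and from 30.1 to 42.4 CPM, and the groups were apart at week 14 alone. The log2 fold changes were -0.37 (edgeR adjusted p = 0.0492), -0.50 (adjusted p = 0.00181) and -0.43 (adjusted p = 0.0213), none of them past a doubling.

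**Figure D2:**
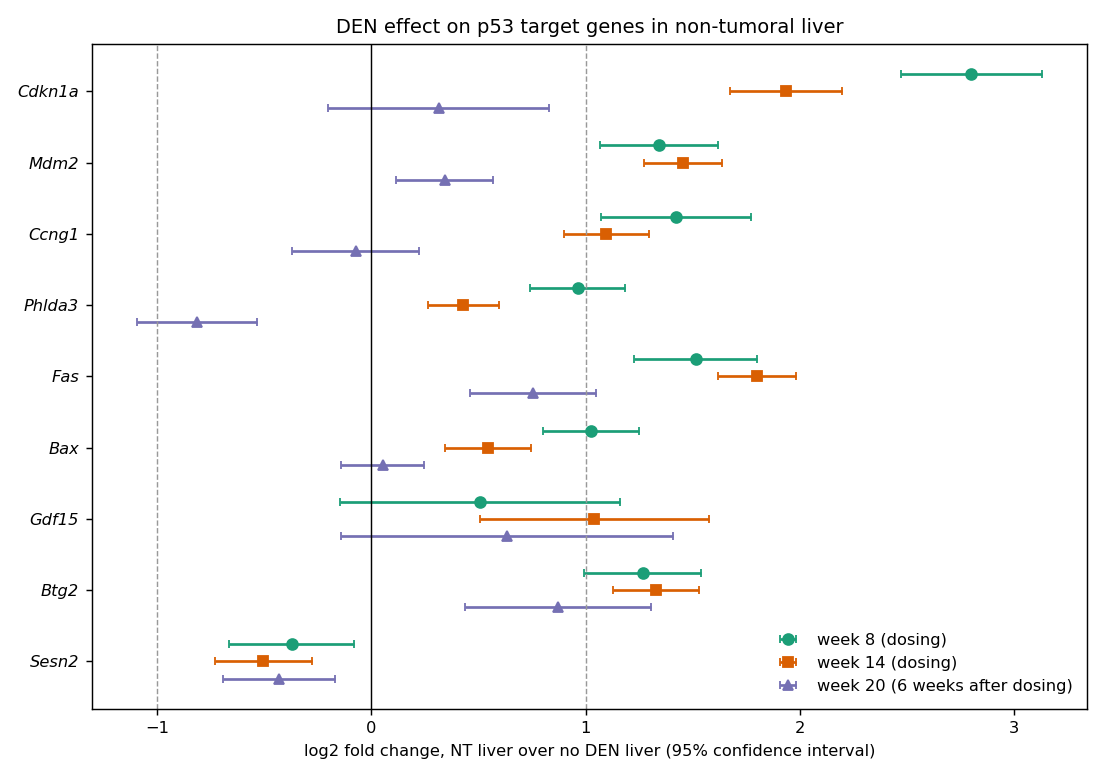
Log2 fold change of NT liver over no DEN liver for each gene (x axis) at weeks 8, 14 and 20, with 95% confidence intervals from the fits of 4 rats against 4; dashed lines mark a doubling and its inverse. Cdkn1a goes from 2.80 to 0.31 between weeks 8 and 20, Phlda3 crosses from 0.96 to -0.81, and Sesn2 lies below 0 at all 3 times.

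Counted without thresholds of size, NT liver lay above every no DEN rat in 7 of the 9 genes at week 8 (18.6% of all genes tested), 8 at week 14 (26.3%) and 3 at week 20 (16.8%), the last being Mdm2, Fas and Btg2. NT liver lay below every no DEN rat in Sesn2 at week 14 (23.9% of all genes) and in Phlda3 at week 20 (11.2%).

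The interaction term of treatment by time gave the test of whether the DEN effect itself differed between time points. From week 14 to week 20 the effect fell in 5 of the 9 genes and rose in 0 at an adjusted p of at most 0.05, against 0.738% of the 11245 genes tested in either direction and 0.373% downwards. The 83 genes behind the first share became 31 without rat H22, 408 without H26, 386 without F06 and 381 with DESeq2. The effect on Cdkn1a dropped by 1.62 on the log2 scale (SE 0.28, edgeR adjusted p = 0.0145), that on Phlda3 by 1.24 (SE 0.15, adjusted p = 0.000455) and that on Ccng1 by 1.17 (SE 0.18, adjusted p = 0.00359). The effect on Mdm2 dropped by 1.11 (SE 0.13, edgeR adjusted p = 0.000394) and that on Fas by 1.04 (SE 0.15, adjusted p = 0.00257). These 5 calls held in all 16 fits that left out a rat, and in the fits with RLE scaling, with DESeq2, with all 8 groups and without the rats numbered F. The change for Bax was -0.49 (SE 0.12, edgeR adjusted p = 0.0697), and it passed with DESeq2 (-0.51), with only rats numbered H (-0.58) and without rat F06 (-0.56). The changes for Btg2, Gdf15 and Sesn2 were -0.45, -0.40 and 0.08, with 95% confidence intervals of -0.94 to 0.03, -1.38 to 0.58 and -0.28 to 0.43.

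Within dosing, from week 8 to week 14, 3 of the 9 effects fell and 0 rose, where 8.96% of all genes passed and 4.8% did so downwards (1005 genes in all, and 151 in the fit with all 8 groups). They were those on Cdkn1a (-0.86, SE 0.20, edgeR adjusted p = 0.0148), Phlda3 (-0.53, SE 0.13, adjusted p = 0.0185) and Bax (-0.48, SE 0.14, adjusted p = 0.0458), of which the last was lost in 11 of the 16 fits without a rat. In the fit with all 8 groups Phlda3 alone passed, and Cdkn1a had an adjusted p of 0.0600. From week 8 to week 20, 5 effects fell, where 0.668% of all genes passed in either direction and 0.397% downwards (74 genes in all, and 242 with DESeq2). Those were the effects on Cdkn1a, Phlda3, Ccng1, Mdm2 and Bax, by 2.51, 1.79, 1.51, 1.02 and 0.99 on the log2 scale. The 3 time comparisons share groups and are not independent of each other.

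The wider set of p53 targets was described by a list of 32 other genes, of which 31 were counted and 26 passed the filter on low counts in the NT comparisons. In NT liver 2 of these 26 were called higher at week 8, 3 at week 14 and 0 at week 20, and 0 were called lower at any time. The called shares were near the 7.29%, 13.1% and 4.89% of all genes called higher at these times. At an unadjusted p under 0.05 were 14, 22 and 8 of the 26, beside 45.7%, 59.9% and 40.2% of all genes. Ckap2, which encodes a spindle protein of dividing cells, rose by 3.23 and 3.34, Dram1, a lysosomal gene of autophagy, rose by 1.21 and 1.46, and Zmat3, an RNA-binding p53 target, rose by 1.19 at week 14. The medians of the 26 genes were 0.23, 0.37 and 0.01 on the log2 scale at weeks 8, 14 and 20, beside -0.01, 0.02 and 0.02 over all genes. From week 14 to week 20 the effect of DEN changed in 1 of 26 genes, Rps27l, by -0.54 (SE 0.12, edgeR adjusted p = 0.0398), where 0.738% of all genes changed, and this call was lost in 11 of the 16 fits without a rat. The change had a fitted value above 0 in 6 of the 26 genes and a median of -0.23, and 10 had an unadjusted p under 0.05, beside 17% of all genes. Between weeks 8 and 14 the effect rose in 1 of 27 genes, Trim32 (1.03, lost in 1 of 16 fits without a rat), and fell in 2, Rps27l (-0.59) and Aen (-0.56), where 8.96% of all genes passed. Between weeks 8 and 20 it fell in 2 of 26, again Rps27l (-1.15) and Aen (-0.96), where 0.668% passed.

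**Figure D3:**
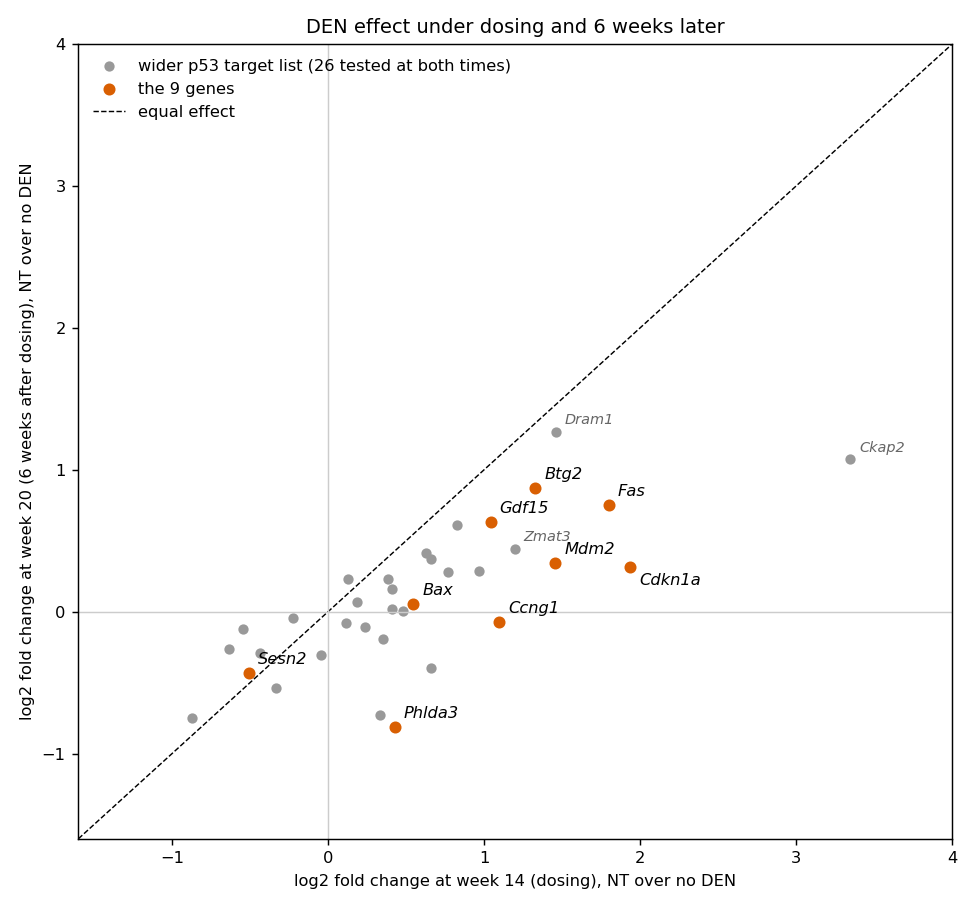
Log2 fold change of NT liver over no DEN liver at week 14 (x axis) against week 20 (y axis) for the 9 genes and for the 26 tested genes of the wider p53 target list; the dashed line marks equal effects. Cdkn1a (1.94 and 0.31), Fas (1.80 and 0.75) and Phlda3 (0.43 and -0.81) lie well below the line, and Ckap2 (3.34 and 1.07) lies farthest right.

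Of 16 regulators of p53, 12 were counted. At week 14, 2 of the 9 tested in NT liver were called higher, where 13.1% of all genes were, and 6 of 9 had an unadjusted p under 0.05, where 59.9% did. Chek1 and Chek2, the checkpoint kinases that signal DNA damage, rose by 1.15 and 1.03 in NT liver at week 14 (SE 0.16 and 0.21, edgeR adjusted p = 0.000156 and 0.00201), and 0 of the regulators tested were called at weeks 8 and 20, where 3 of 9 and 6 of 10 had an unadjusted p under 0.05 (45.7% and 40.2% of all genes). Chek2 was short of a doubling with DESeq2 (0.999) and without rat H10, H12 or H22 (0.993, 0.961 and 0.867). Cdkn2a, whose locus encodes the p53-stabilising protein ARF beside p16, had 0 to 2 counts in the libraries of no DEN liver at the 3 times, 0 to 6 in NT liver at week 8, 5 to 38 at week 14 and 7 to 100 at week 20, the 100 in the deepest library. Scaled for depth, NT liver ranged from 0 to 0.215 CPM at week 8, from 0.153 to 1.28 CPM at week 14 and from 0.199 to 0.613 CPM at week 20, and neighbouring ranges overlapped.

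Sesn2 and Gdf15 are also induced by the stress factor ATF4, and 14 genes of that pathway were counted. In NT liver 3, 5 and 4 of the 13 tested were called higher at weeks 8, 14 and 20, where 7.29%, 13.1% and 4.89% of all genes were, and 0, 1 and 0 lower. Atf3 and Psat1 were higher at all 3 times (1.52, 1.94 and 1.69, and 1.26, 2.53 and 2.02), while Atf5 fell by 1.51 at week 14. The calls of Psat1 at week 8 and of Asns at week 20 (1.35) were each lost in 6 of the 8 fits without a rat, and that of Ddit4 at week 14 (1.11) in 1. Slc7a11, the cystine transporter of the list, had 0 to 9 counts in the no DEN libraries (at most 0.355 CPM). In NT liver of weeks 8, 14 and 20 it had 0.744 to 5.19, 11.6 to 100.5 and 8.47 to 49.5 CPM. It is among the genes called higher at all 3 times, but it passed the filter on low counts only through the DEN-treated groups. For that reason no p-value is given for it. Its week 8 call was lost without that filter and in 7 of 8 fits without a rat. The 16 cell-cycle genes of a list that are repressed through p21 and the DREAM complex were higher in NT liver, 16 of 16 at weeks 8 and 14 and 0 of 16 at week 20, where 13 had an unadjusted p under 0.05 (40.2% of all genes). Their median log2 fold changes were 2.18, 2.66 and 1.07 at weeks 8, 14 and 20, while those of Cdkn1a were 2.80, 1.94 and 0.31. Mybl2, a transcription factor of dividing cells, was the 1 gene of the 16 past the threshold for a change of effect from week 14 to week 20 (-3.30, SE 0.44, edgeR adjusted p = 0.00102), where 0.738% of all genes passed. The fitted change lay below 0 in all 16, with a median of -1.47, and 13 had an unadjusted p under 0.05, beside 17% of all genes.

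Nodules were compared with NT liver of the same rats, the counts of the 2 nodules of a rat being added. The fit without the block treated NT liver and nodules as separate groups and did not use the pairing by rat. At week 14, 0 of the 9 genes and 0 of 11466 genes passed a log2 fold change of 0.5 and an adjusted p of 0.05 (0%), and at week 20, 0 of the 9 and 0 of 11546 (0%). At an unadjusted p under 0.05 stood 2 and 5 of the 9 genes, beside 11.8% and 24% of all genes. DESeq2 called 0 and 1 of the 9, where it called 35 and 902 of all genes. With the rat as a block, 1 of the 9 genes was called at week 20, where 14.7% of all genes were (9.21% higher), and 0 at week 14, where 0% were. The gene was Gdf15, which was 0.80 higher on the log2 scale in nodules (SE 0.10, edgeR adjusted p = 0.000148 with the block, and 0.78 with adjusted p = 0.116 without it).

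By rat at week 20, Gdf15 had 3.36, 5.17, 6.54 and 6.10 CPM in NT liver of F03, H25, H26 and H28 and a mean of 7.27, 8.51, 11.997 and 9.89 CPM in their nodules. All 4 nodule means were above all 4 NT values, and 7 of the 8 nodules were above their own NT liver. The exception was nodule 1 of H28, at 5.84 CPM against 13.9 CPM in nodule 2 of that rat. At week 14 also 7 of 8 nodules were above their own NT liver, with nodule means of 14.9, 10.5, 15.2 and 6.96 CPM in F06, H21, H22 and H23, and the groups overlapped (log2 fold change 0.57, SE 0.27, edgeR adjusted p = 0.443, and 0.36 without F06).

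Mdm2 was higher in each of the 8 nodules than in NT liver of the same rat at both times. The nodule means were 79.9, 49.9, 60.3 and 54.0 CPM at week 14 against 47.2, 47.9, 55.7 and 49.6 CPM in NT liver, and 35.4, 31.9, 38.3 and 51.2 CPM at week 20 against 24.6, 27.1, 31.7 and 25.7 CPM. Several differences were small, such as 27.2 against 27.1 CPM for nodule 2 of H25, and the widest were in F06 at week 14 and H28 at week 20. The log2 fold change was 0.27 at week 14 (SE 0.15, edgeR adjusted p = 0.470) and 0.47 at week 20 (SE 0.15, adjusted p = 0.125), and it was 0.092 without F06 and 0.31 without H28. With the rat as a block it was 0.46 at week 20 with an adjusted p of 0.0154, under the size threshold.

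Bax was above its own NT liver in 8 of 8 nodules at week 14 and 7 of 8 at week 20. The nodule means were 41.2, 27.95, 30.8 and 26.8 CPM at week 14 and 26.3, 20.0, 21.7 and 25.8 CPM at week 20, all above every NT value of the same week. Lying above every NT rat held for 1 of the 9 genes at week 14 (4.74% of all genes) and for 3 at week 20 (7.75%), Mdm2, Bax and Gdf15. The log2 fold changes of Bax were 0.41 (SE 0.16, edgeR adjusted p = 0.404, and 0.19 without rat F06) and 0.35 (SE 0.11, adjusted p = 0.123). With the rat as a block, Bax was at 0.34 at week 20 (edgeR adjusted p = 0.0138), under the size threshold. Fas was above its own NT liver in 8 of 8 nodules at week 20 and in 3 of 8 at week 14. Its log2 fold change at week 20 was 0.32 without the block (edgeR adjusted p = 0.188). With the block it was also 0.32 (adjusted p = 0.0127), under the size threshold.

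Sesn2 was lower in nodules than in NT liver in all 4 rats at both times, and in 8 of 8 nodules at week 14 and 7 of 8 at week 20. The nodule means were 18.4, 21.3, 21.3 and 26.2 CPM against 29.0, 22.6, 26.3 and 31.1 CPM in NT liver at week 14, and 16.6, 26.3, 20.6 and 16.99 CPM against 23.7, 29.0, 30.4 and 25.5 CPM at week 20. The ranges of the groups overlapped at both times. Its log2 fold change was -0.34 at week 14 and -0.44 at week 20 (edgeR adjusted p = 0.412 and 0.158), and -0.46 with the block at week 20 (adjusted p = 0.00324), under the size threshold.

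Cdkn1a, Ccng1, Phlda3 and Btg2 did not pass in either direction. Nodules below their own NT liver numbered 3, 7, 4 and 4 of 8 at week 14 for these genes in turn. At week 20 they numbered 5, 1, 1 and 2 of 8. At week 14 nodule means of Cdkn1a were 177, 124, 132 and 150.5 CPM against 134, 123, 149 and 172 CPM, and at week 20 they were 51.6, 51.3, 53.4 and 52.4 CPM against 41.2, 58.2, 71.5 and 48.0 CPM. The log2 fold changes of Cdkn1a were -0.0037 (95% confidence interval -0.34 to 0.34) and -0.12 (-0.47 to 0.22). The intervals of Ccng1 were -0.28 to 0.17 and -0.13 to 0.34, those of Phlda3 -0.18 to 0.17 and -0.28 to 0.27, and those of Btg2 -0.31 to 0.39 and -0.20 to 0.37. These intervals are from the fit without the block. With the rat as a block all were narrower and also held 0, such as -0.18 to 0.22 and -0.08 to 0.27 for Btg2.

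**Figure D4:**
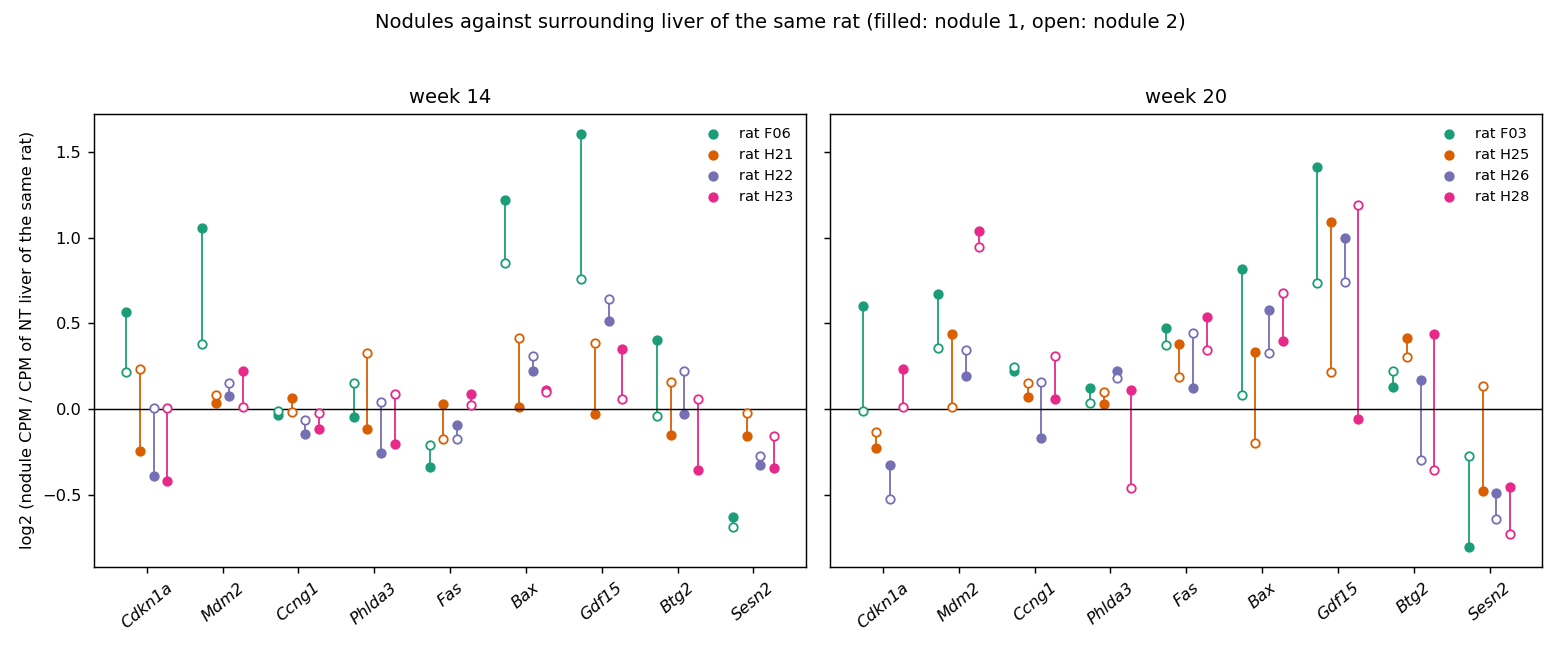
Log2 ratio of the CPM of each nodule to the CPM of NT liver of the same rat (y axis) for the 9 genes at weeks 14 and 20, with 1 colour per rat and the 2 nodules of a rat joined by a line. All 8 points of Mdm2 lie above 0 at both weeks, Sesn2 lies below 0 in 8 of 8 and 7 of 8 nodules, and Cdkn1a lies on both sides.

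The 2 nodules of a rat could differ as much as rats did. The higher nodule exceeded the lower by up to 2.39-fold for Gdf15 at week 20 and 1.79-fold at week 14, and by up to 1.66-fold for Bax at week 20. Ccng1 was the most even at week 14, with at most 1.07-fold between the nodules of a rat.

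Nodules were also set against no DEN liver. Since NT liver was compared with the same no DEN rats, values of both are given side by side. At week 14, 7 of the 9 genes were called higher and 1, Sesn2, lower, where 39.1% of all genes were called (23.9% higher and 15.2% lower), and at week 20, 4 were higher and 2 lower, where 38.8% were (23.6% and 15.2%). Cdkn1a was at 1.90 in nodules and 1.94 in NT liver at week 14, and at 0.18 and 0.31 at week 20. Ccng1 was at 1.01 and 1.10, then at 0.02 and -0.07. At week 20, Gdf15 (1.40, SE 0.33, edgeR adjusted p = 0.00526), Fas (1.06, SE 0.13, adjusted p = 0.000183), Btg2 (0.94, SE 0.17, adjusted p = 0.00151) and Mdm2 (0.80, SE 0.14, adjusted p = 0.00128) were still higher in nodules. Sesn2 (-0.88, SE 0.17, edgeR adjusted p = 0.00207) and Phlda3 (-0.83, SE 0.09, adjusted p = 8.63e-05) were lower. The thresholds differ from those of the NT comparison, so the counts of the 2 comparisons cannot be set against each other.

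Other p53-linked genes were called in both directions in nodules against no DEN liver. Of the 27 tested genes of the wider p53 target list, 9 were higher and 5 lower at week 14, and 7 higher and 5 lower at week 20, with medians of 0.21 and -0.08, beside the 23.9% and 15.2%, and 23.6% and 15.2%, of all genes given above for these calls. Of those higher, Ckap2 was at 3.42 and 2.14 in nodules of weeks 14 and 20, and Dram1 at 1.56 and 1.29. Zmat3 was at 1.09 and 0.71, Plk3 at 1.34 at week 14 and Trim32 at 1.05 at week 20. Psrc1, at 3.53 and 1.84, had at most 4 counts in a no DEN library and passed the filter only through the nodules. Of those lower, Xpc, which recognises damaged DNA, was 1.24 and 1.15 lower on the log2 scale at weeks 14 and 20. Sesn1, a relative of Sesn2, was 0.69 and 0.99 lower. Cdkn2a had 0.451 to 2.42 CPM in the 8 nodules of week 14 and 0.233 to 3.42 CPM in those of week 20, against 0 to 2 counts in no DEN libraries. It passed the filter on low counts only through the nodules, so no p-value is given for it. Of the p53 regulators 3 of the 10 tested were higher and 1 lower at week 14, and 3 of 11 higher and 2 lower at week 20, with Cdkn2a among the higher ones at both weeks. The ATF4 list had 6 higher and 2 lower of 13 at week 14 and 7 higher and 2 lower at week 20, with Asns at 1.64 and 2.23 and Atf5 at -1.77 and -1.04. The cell-cycle list had 16 and 15 of 16 higher. Of the calls in the wider, regulator and ATF4 lists that were refitted without each rat, those of Chek2 and Plk2 at week 20 were lost in 6 of 8 fits each, those of Fdxr at week 14 and Herpud1 at week 20 in 4 each, and that of Usp7 in 3 fits at week 14 and 1 at week 20.

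Against NT liver with the rat as a block at week 20, 3 of 27 wider targets were higher (Ckap2 1.09, Psrc1 0.96 and Trim32 0.76), as were 1 regulator (Cdkn2a, 1.87), 5 of 13 ATF4 genes and 16 of 16 cell-cycle genes, where 9.21% of all genes were. Without the block, as for all genes, 0 genes of these lists were called, with 7, 1, 7 and 14 genes at an unadjusted p under 0.05, as had 24% of all genes.

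Ordered by group mean, Cdkn1a was highest in NT liver of week 8 (238 ± 32.7 CPM, SD, n = 4 rats). The nodules (146 ± 23.6) and NT liver (145 ± 21.02) of week 14 came next and did not differ beyond their spread. The other 5 groups, from 54.7 ± 13.2 CPM in NT liver of week 20 down to 33.9 ± 6.07 CPM in no DEN liver of week 8, each lay within the spread of their neighbour. Phlda3 had the same first groups but another end, with no DEN liver at 39.0 ± 3.43, 36.1 ± 4.09 and 32.9 ± 1.87 CPM for weeks 20, 8 and 14, above nodules (22.9 ± 1.79) and NT liver (22.3 ± 4.06) of week 20. Mdm2, Gdf15 and Btg2 had their highest mean in nodules of week 14 (61.0 ± 13.3, 11.9 ± 3.91 and 51.6 ± 10.3 CPM), and Sesn2 its lowest in nodules of week 20 (20.1 ± 4.52 CPM). The gap to the neighbouring group was beyond the spread for Mdm2 and within it for Gdf15, Btg2 and Sesn2.

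Across the 32 values of rat and tissue, log2 levels of Cdkn1a and Ccng1 had a Pearson correlation of 0.96, and those of Mdm2 and Fas 0.94. Phlda3 followed Cdkn1a (0.68) and Ccng1 (0.70) more than Mdm2 (0.37), Btg2 (0.21) or Gdf15 (0.05), and Sesn2 ran opposite to Mdm2 (-0.72). These values describe libraries that share treatment, time and, for NT liver and nodules, the rat. Among 10098 genes, the 3 most like Cdkn1a were Ccng1 (0.96), Nhej1 (0.96) and Mybl2 (0.95), and the 3 most like Ccng1 were Jam3 (0.97), Cdkn1a and Mybl2. Mdm2 was most like Vps36, Mybl1 and Dut (0.96, 0.95 and 0.95), Fas like Abcb1b, Cmpk2 and Xkr5 (0.96, 0.95 and 0.95), and Bax like Dut, Mgmt and H2afz (0.91 each). Phlda3 was most like Nrcam, Sp5 and Gnat1 (0.88, 0.84 and 0.82), Gdf15 like Mesdc1, Slc25a27 and Nck2 (0.86, 0.86 and 0.85), Btg2 like Tacc1, Mcam and Rnf145 (0.94, 0.94 and 0.93), and Sesn2 like Slc30a10, Cluh and Plxna2 (0.94, 0.94 and 0.92).

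Cell-type markers moved with treatment in the same libraries. In bulk tissue, fewer cells of a type and less RNA per cell cannot be told apart. The summed level of 8 hepatocyte markers was 282341 to 331769 CPM over the no DEN livers, 237363 to 303098 CPM in NT liver at week 8, 192561 to 238804 CPM at week 14 and 231777 to 305346 CPM at week 20. Sums are weighted towards the most abundant markers. Of these 8, the fitted change in NT liver lay above 0 in 3, 1 and 2 at weeks 8, 14 and 20. In nodules against no DEN liver it lay above 0 in 1 of the 8 at weeks 14 and 20. The 14 leukocyte markers summed to 87.1 to 161 CPM without DEN and 164 to 178 CPM with DEN at week 8, to 71.8 to 102 and 113 to 188 CPM at week 14, and to 65.7 to 106 and 96.5 to 159.6 CPM at week 20. The 8 stellate and fibroblast markers summed to 193 to 248 CPM without DEN and 353 to 488 CPM with it at week 8, to 195 to 241 and 360.2 to 481 CPM at week 14, and to 164 to 209 and 237 to 260.2 CPM at week 20. Endothelial markers (6 genes) were at 60.0 to 162 CPM without DEN and 168 to 230 CPM in NT liver, and cholangiocyte markers (5 genes) at 43.2 to 55.8 CPM and 53.2 to 110 CPM. Col1a2 was at 0 in all libraries and no other counted marker was. The part of these shifts in the levels of the 9 genes was not tested. In nodules of weeks 14 and 20, hepatocyte markers were at 166186 to 205100 and 169893 to 231072 CPM and cholangiocyte markers at 86.8 to 136 and 93.3 to 204 CPM, against 59.5 to 109.7 and 54.3 to 78.4 CPM for the latter in NT liver.

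Libraries held 20528515 to 160622633 counted pairs (median 30477421), and the deepest, NT liver of H26 at week 20, had 4.08-fold the next. Without H26 the 5 effects that fell from week 14 to week 20 still passed. Without the rats numbered F, 6 of the 9 genes were called at week 8 with Phlda3 (1.10) in place of Bax (0.93). That fit called 648 of all genes, and the main fit 855. At week 8, Cdkn1a had 206 and 215 CPM in NT liver of F09 and F10 and 255 and 275 CPM in H17 and H18. F09 and F10 also lay below H17 and H18 for Ccng1, Phlda3, Fas, Gdf15, Btg2 and Sesn2, but not for Mdm2 and Bax. The part of the number series in the changes between times was not tested.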

How the data were processed

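The deposited files held raw counts per gene, 1 file per library, which the authors made with STAR 2.7.1a on the rat genome rn6 and HTSeq on the reverse strand, counting pairs that lay within exons of a single gene and aligned to a single place. Gene names were used as written in the files. Both nodules of a rat were summed to give 1 profile. After filterByExpr and TMM scaling, groups were tested in edgeR 4.0.16 (R 4.3.3) by robust quasi-likelihood, 2-sided, with only the groups compared in the fit and Benjamini-Hochberg adjustment over all genes tested. NT liver was called at an absolute log2 fold change of 1 or more with adjusted p up to 0.01, nodules at 0.5 and 0.05, and treatment by time interactions at adjusted p up to 0.05. SE and 95% intervals are from these fits. CPM values used TMM over the 40 libraries, and a rat's nodule value is the mean of its 2 nodules. The scripts were tested on simulated data.

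The 9 genes, the gene lists and the alternative settings were chosen with earlier results of these data known. All 9 genes are named, with up to 5 called genes in each direction for the other lists, and the 3 genes most like each of the 9 by Pearson correlation of log2 CPM among genes with a mean of at least 1 CPM. The lists of wider p53 targets, p53 regulators, ATF4 targets, cell-cycle genes and markers were written from general knowledge, and Eda2r, Atr, Tp53bp1, Ep300, Sirt1, Cd79a and Krt7 were not analysed here. NT liver and nodules of a rat are paired by the rat number in the labels, and their deviations from the group means correlated at 0.39 to 0.65 in the 8 rats. The rat as block was an alternative, as were DESeq2 1.42.0, RLE scaling, no filter, all 8 groups in a fit, only rats numbered H, nodule 1 or 2 alone, and leaving out each rat. Depth was 20528515 to 160622633 counted pairs per library, and errors were taken from the spread between rats.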

Additional observations from a re-analysis of the deposited data

Results flagged for a closer look

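In 13 cases the effect of DEN on one of the genes in NT liver differed between times by the interaction test (edgeR, adjusted p at most 0.05). Of all genes tested, 8.96%, 0.738% and 0.668% passed in the 3 comparisons below. These comparisons share groups, so the 13 cases are not independent. From week 8 to week 14 the log2 fold change moved by -0.86 for Cdkn1a, -0.53 for Phlda3 and -0.48 for Bax. In the fit with all 8 groups Phlda3 alone of these passed, and the Bax call was lost in 11 of 16 fits without a rat. From week 14 to week 20 it moved by -1.62 for Cdkn1a, -1.11 for Mdm2, -1.17 for Ccng1, -1.24 for Phlda3 and -1.04 for Fas. From week 8 to week 20 it moved by -2.51 for Cdkn1a, -1.02 for Mdm2, -1.51 for Ccng1, -1.79 for Phlda3 and -0.99 for Bax. Cdkn1a and Phlda3 were in all 3 sets. No rat stood apart from its group of 4 by Dixon's test in any of the 72 combinations of gene and group. With 4 rats this test flags only a single very distant value and cannot flag 2 rats that differ from the other 2.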

How the results depend on the processing

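Of 1404 values of the 9 genes under other settings, 1325 kept their direction and side of the threshold, 24 fell below it, 16 passed it and 39 changed sign. The cause was not tested for any of the values below. From week 14 to 20, 83 genes were called, 381 with DESeq2, 41 with all 8 groups, 182 with only rats numbered H and 31 (without H22) to 408 (without H26) when a rat was left out. From week 8 to 14, 1005 were called, 1529 with DESeq2, 151 with all 8 groups (1 of the 9 genes) and 533 (H21) to 1870 (H17) without a rat. From week 8 to 20, 74 were called, 242 with DESeq2, 44 with only rats numbered H and 42 (H13) to 107 (H28) without a rat. For NT liver at week 20 it was 565, and 250 to 649 without a rat (325, 343 and 250 without H14, H15 or H16), with 0 to 1 of the 9 genes. For nodules against NT liver, DESeq2 called 35 genes at week 14. At week 20 it called 902, all 8 groups 1096, the rat as block 1693 and nodule 1 alone 218, where edgeR without the block called 0, and 0 to 445 (H25) without a rat. DESeq2, all 8 groups and the block each called 1 of the 9 genes, which was Gdf15, Mdm2 and Gdf15.

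Values that changed sign had lain near 0. For nodules against NT liver at week 14, Cdkn1a was 0.0032 with RLE scaling, 0.0083 without the filter, 0.019 with all 8 groups and 0.10 with nodule 2 alone, Phlda3 was 0.0044 without the filter, 0.014 with all 8 groups and 0.15 with nodule 2 alone, and Btg2 was -0.011 with only rats numbered H. At week 20, Phlda3 was 0.0045 without the filter, 0.025 with all 8 groups, 0.10 with nodule 1 alone and 0.0092 with the block, Cdkn1a was 0.014 with nodule 1 alone and Btg2 -0.041 with nodule 2 alone. Against no DEN liver at week 20, Ccng1 was -0.11 with nodule 1 alone. From week 8 to 14, Btg2 was -0.14 with only rats numbered H. Leaving out a rat gave, for nodules against NT liver, -0.14 to 0.086 (Cdkn1a), -0.042 to 0.024 (Phlda3) and -0.011 to 0.10 (Btg2) at week 14, and -0.21 to 0.040 (Cdkn1a) and -0.043 to 0.11 (Phlda3) at week 20. It gave -0.068 to 0.10 for Ccng1 in nodules and -0.18 to 0.010 in NT liver against no DEN liver at week 20. For changes between times it gave -0.045 to 0.12 (Btg2) and -0.0023 to 0.18 (Mdm2) from week 8 to 14, -0.012 to 0.16 (Sesn2) from week 14 to 20, and -0.23 to 0.43 (Gdf15) and -0.18 to 0.036 (Sesn2) from week 8 to 20. With 4 rats a group, the widest intervals in the fits without the block were those of Gdf15, which had the lowest count in a library (36).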
